A study of Mus musculus with 23 samples.

Results

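Caveolae are small flask-shaped pits of the plasma membrane, and annexins are proteins that bind membrane phospholipids when calcium rises. The RNA levels of 10 mouse genes of these families are described here: the caveolins Cav1 and Cav2, the cavins Cavin1, Cavin2 and Cavin3, the annexins Anxa1, Anxa2, Anxa5 and Anxa6, and S100a10, which encodes the partner protein of annexin A2. They were chosen by name, out of 55487 gene IDs in each count table, because Anxa2 and Cavin1 stood higher in axonal libraries. The difference between axons and somata is therefore a description throughout and was given no test. All 10 genes were found by their Ensembl IDs.

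The cultures were hippocampal neurons of C57Bl/6 mouse pups at postnatal day 1, plated on the soma side of microfluidic chambers (XONA) whose channels let axons grow into a separate compartment. Every culture, controls included, received medium with 5 µg/ml magnetic nanoparticles (MNPs), which a magnetic gradient can pull on. In stretched cultures a gradient of 50 T/m acted from day in vitro 1 to day 6, and in control cultures the gradient was null. The 23 poly(A) RNA libraries comprised 5 from control axons and 6 each from stretched axons, control somata and stretched somata, where soma is the cell-body side, labelled as total culture and collected as the somatodendritic compartment. The labels do not say which libraries came from separate animals or cultures, so p-values measure only the spread between these samples, which may be partly technical.

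Caveolins insert into the inner leaflet and oligomerise, and cavins coat the cytosolic face of the assembled pit. Caveolae can flatten when the membrane is put under tension, and they are best known from endothelial cells, fibroblasts, adipocytes and muscle. Annexins act in membrane traffic, in links between membrane and actin and in the resealing of damaged plasma membrane.

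Total counts ranged from 16369153 to 43048953 per library, so 3 counts corresponded to 0.0697 to 0.183 counts per 1000000 counts of its library (CPM). That floor covers counting error only. Axonal libraries held at least 1 count for 4263 to 10242 genes and soma libraries for 22452 to 24575. A gene with 0 counts in an axonal library was thus common even among genes well counted in somata. The soma libraries fell into 2 sides by the Y-linked gene Eif2s3y, at 24.7 to 28.7 CPM in 6 of them and 5.39 to 13.2 CPM in the other 6. Each side held 3 control and 3 stretched libraries, and the labels give no name to this split.

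Markers of other cells were present on both sides of the chamber, although the axonal samples are labelled as a pure preparation. Summed over 8 astrocyte markers, the level was 5272 to 14357 CPM in control somata, 5518 to 11683 CPM in stretched somata, 4789 to 25995 CPM in control axons and 4970 to 20650 CPM in stretched axons. Gfap, the astrocyte intermediate filament gene, was counted in all 11 axonal libraries and averaged 12715 CPM in control axons against 6399 CPM in control somata. Members of this list went both ways. Aldoc averaged 1906 and 899 CPM in control axons and control somata. The remaining members averaged less in control axons than in control somata. Aqp4 averaged 31.2 and 311 CPM, Aldh1l1 77.4 and 125 CPM, and Sox9 136 and 239 CPM. Slc1a3 averaged 718 and 813 CPM, Slc1a2 146 and 155 CPM, and Gja1 116 and 141 CPM. In stretched axons and stretched somata, Gja1 averaged 451 and 199 CPM and Sox9 325 and 228 CPM. Aqp4 was counted in 4 of 5 control and 1 of 6 stretched axon libraries. The 8 neuronal markers summed to 2695 to 4629.5 CPM in control axons and 1820 to 4126 CPM in stretched axons. In control and stretched somata they summed to 6332 to 7680 CPM and 6139 to 6560 CPM. The sum over 8 fibroblast and mural markers was 308 to 467 CPM in control somata and 348 to 452 CPM in stretched somata. It was 162 to 1442 CPM in control axons and 275 to 3408 CPM in stretched axons. Members of this list also went both ways. Rgs5 averaged 404 and 143 CPM in control axons and control somata, and Acta2 172 and 20.6 CPM. Col1a2, Col3a1 and Dcn also averaged more in control axons. Col1a1 (57.5 and 84.7 CPM), Lum (0.0111 and 13.7 CPM) and Pdgfrb (0 and 14.5 CPM) averaged less. The 8 endothelial markers summed to 8.21 to 22.2 CPM and 10.8 to 19.9 CPM in the control and stretched soma groups, and to 0 to 11.1 CPM and 0 to 256 CPM in the axon groups. Of the 8 endothelial markers, Cdh5, Cldn5, Kdr, Tek and Esam had 0 counts in every axonal library, Flt1 was counted in 5 of 11 (up to 107 CPM), and Emcn (256 CPM) and Pecam1 (0.0499 CPM) in 1 each. Their soma means were all under 10 CPM, a range in which genes were detected in a median of 0 axonal libraries. In bulk samples such as these, fewer cells of a type and less RNA per cell cannot be told apart.

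**Figure D1:**
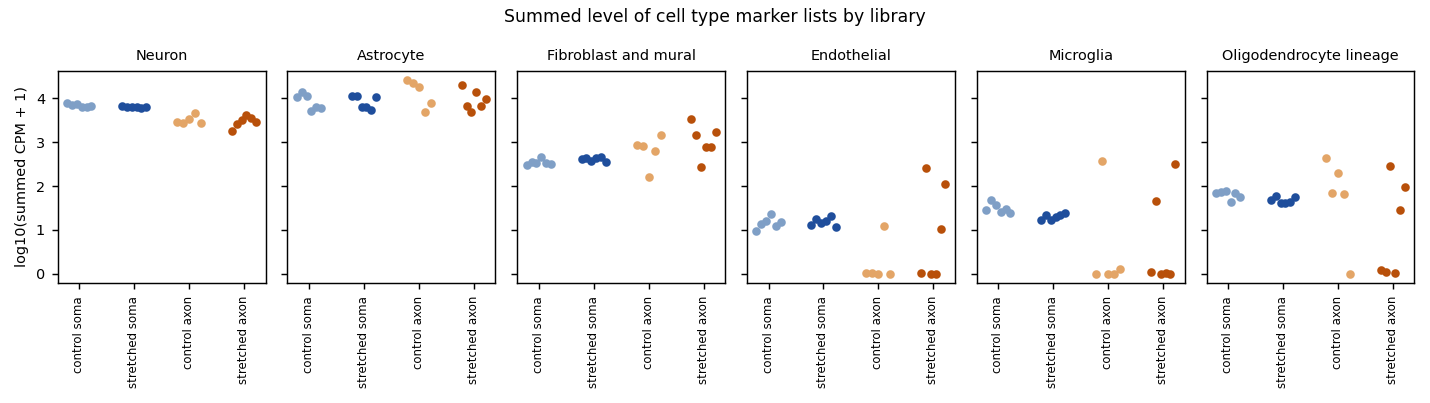
Summed level of each marker list, log10 of summed CPM + 1, in every library of the 4 groups (1 point is 1 library). The astrocyte sums of axonal libraries span 4789 to 25995 CPM in control axons, and the endothelial sums are 0 in several axonal libraries.

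Stretched somata had less RNA of annexins A2, A5 and A6, of S100a10 and of Cavin3, and more of Cavin1, than control somata. Anxa2 fell by 0.68 on the log2 scale (SE 0.13, edgeR adjusted p = 0.00528) and S100a10 fell by 0.44 (SE 0.09, adjusted p = 0.00674). Cavin1, which encodes the coat protein required for caveola formation, rose by 0.35 (SE 0.12, adjusted p = 0.0471). Thus 5 of the 10 genes fell, against 13.9% of the 15632 genes tested, and 1 rose, against 11.2%. Taken in both directions, edgeR called 6 of 10 genes and 25.1% of all genes. At an unadjusted p under 0.05 these were 7 of 10 and 39.4%. For none of the 10 did the stretched and control soma libraries lie fully apart, while 2.36% of all genes averaging 10 CPM or more had every stretched library above every control and 3.14% below. The median log2 fold change over all genes tested was -0.03. In axons edgeR called 0 of 4947 genes, or 0%, and 46 genes (0.93%) had an unadjusted p under 0.05. DESeq2 called 18 genes there and limma voom 10, none of them among the 10 described. The filter on low counts in axons was passed by 8 of the 10. None of the 10 had stretched and control axon libraries fully apart, against 0.0581% of all genes with stretched above control and 0.151% below. Whether the response to stretch differed between the compartments was not tested.

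**Figure D2:**
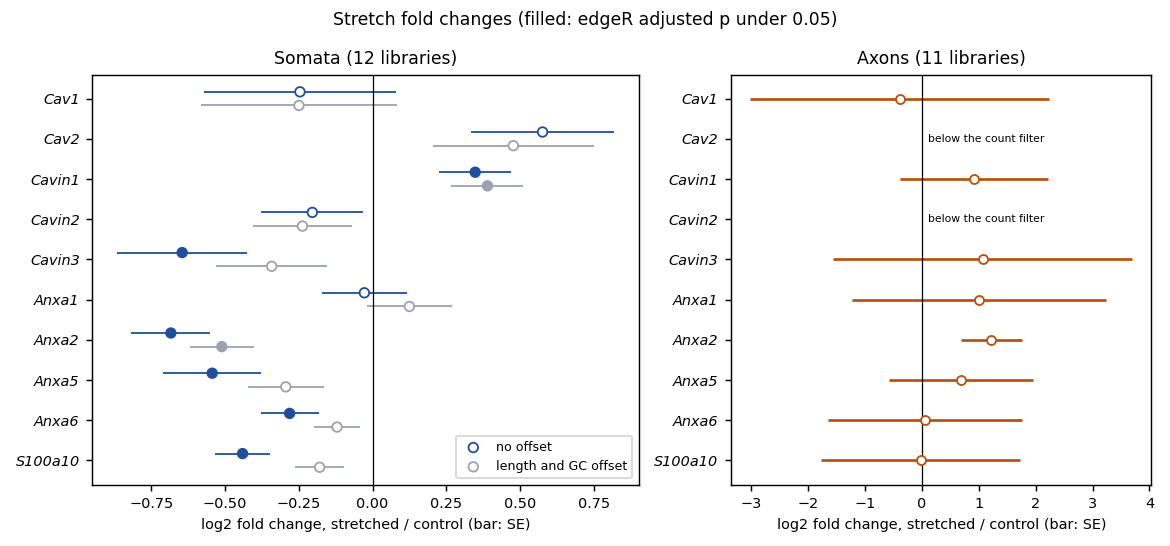
Log2 fold change of stretched against control for each gene, in 12 soma libraries (left, without and with an offset for transcript length and GC content) and in 11 axonal libraries (right). Bars are SE and filled points have an edgeR adjusted p under 0.05. In somata 6 genes pass without the offset and 2 with it, and in axons none does.

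Anxa2 and S100a10 each passed in all 12 fits that left out 1 soma library. Across these fits between 2 and 6 of the 10 genes passed, and 2666 to 6072 of all genes. Fold changes in somata also moved with transcript length, with a Spearman rho of 0.457 over 15619 genes (genes do not count as independent replicates). With an offset for length and GC content, 2 of the 10 genes passed, against 16% of all genes. Anxa2 fell (log2 fold change -0.51, edgeR adjusted p = 0.00968), as did 9.97% of all genes, and Cavin1 rose (0.39, edgeR adjusted p = 0.0411), as did 6.03%. So with the offset 1 of the 10 fell and 1 rose, shares near those of all genes. In a fit over all 4 groups, which shares its spread with the axonal libraries, none of the 10 genes passed, nor did any of 16113 genes.

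**Figure D3:**
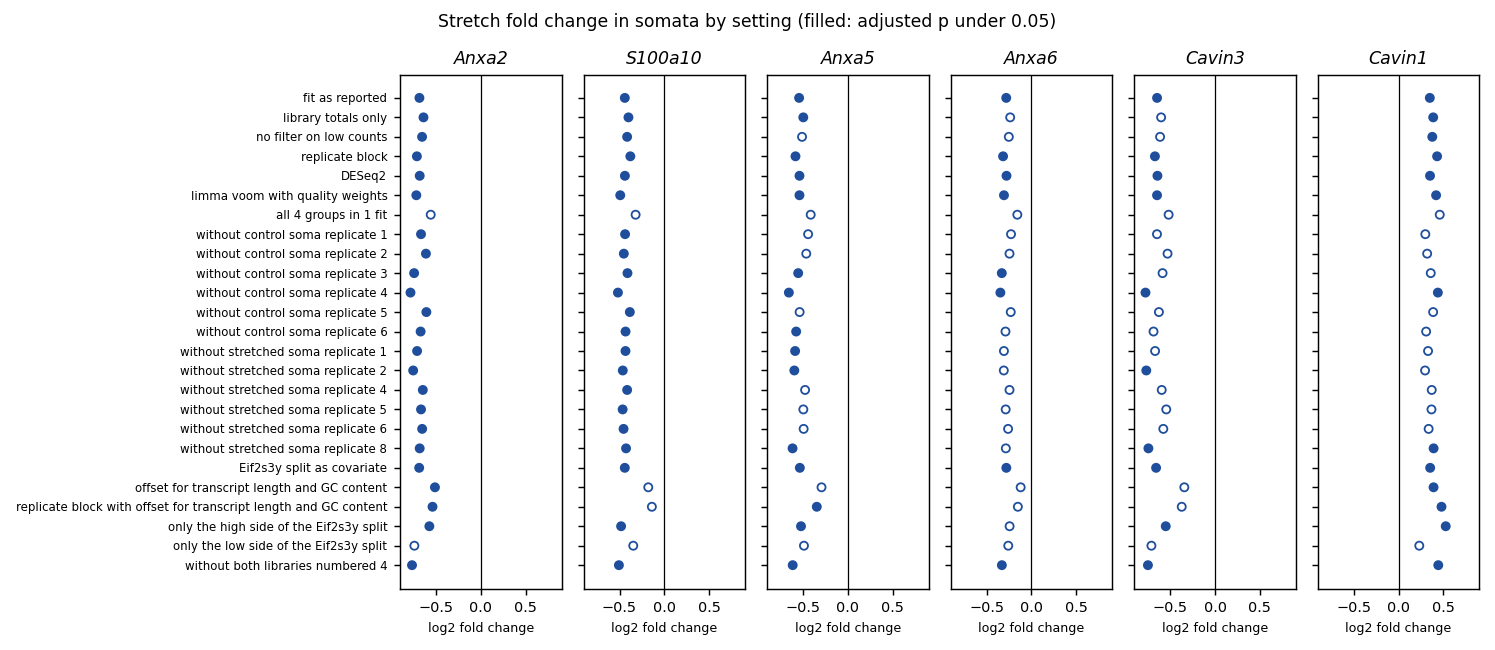
Log2 fold change of stretched against control somata for the 6 genes that passed in the fit as reported (top line) and under each of 24 other settings. Filled points have an adjusted p under 0.05. Anxa2 passes in 22 of the 24 settings, S100a10 in 20 and Cavin1 in 12, and no point of these 6 genes lies on the other side of 0.

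Cav1 and Cav2 encode the membrane-embedded caveolins, of which caveolin 1 is the one needed to form caveolae outside striated muscle and caveolin 2 joins it in hetero-oligomers. They are neighbours on chromosome 6 in GRCm38, Cav2 at chr6:17281185-17289115 and Cav1 at chr6:17306335-17341452, both on the plus strand. The lowest, median and highest Cav1 levels were 39.6, 78.5 and 135 CPM in control somata and 38.2, 72.3 and 106 CPM in stretched somata. The groups overlapped, and the fitted log2 difference was -0.25 (SE 0.33, edgeR adjusted p = 0.607). A p above the threshold does not show that the groups were alike. Cav1 followed the Eif2s3y split: the mean was 109 ± 23.2 CPM (SD, n = 3) on the high side and 53.8 ± 12.9 CPM (SD, n = 3) on the low side in control somata. Gfap differed by side in the same direction there, at 8781 ± 1502 and 4016 ± 447 CPM (SD, n = 3 each), and its part in the Cav1 level was not tested. Cav1 was not alone in this. On the high and low sides of control somata, Cavin3 averaged 23.6 and 15.7 CPM and Anxa5 162 and 110 CPM. Like Cav1, both had no overlap between the sides in control or in stretched somata. The share of all genes so separated was not counted.

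Cav2 stood at 26.8, 41.7 and 59.4 CPM (lowest, median, highest) in control somata and at 36.3, 64.8 and 87.2 CPM in stretched somata. Of the 6 stretched libraries, 3 lay above every control. Its log2 fold change, 0.58 (SE 0.24, edgeR adjusted p = 0.0936), did not pass. It passed in 5 of the 24 other settings: with the Eif2s3y side as covariate (0.54, edgeR adjusted p = 0.00493), on the high side alone (0.73, edgeR adjusted p = 0.00482), with the replicate block (0.59, edgeR adjusted p = 0.0286), in DESeq2 (0.58, adjusted p = 0.0476) and without stretched soma replicate 4 (edgeR adjusted p = 0.0375).

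In axons both caveolins were counted in few libraries. Cav1 was at 419.7, 283 and 244 CPM in control axon replicates 1, 2 and 3 and at 0 in replicates 5 and 7. In stretched axons its lowest, median and highest levels were 0, 45.6 and 365 CPM. It was thus detected in 6 of 11 axonal libraries, and where detected it stood near or above the soma levels. Cav2 was at 349.9 and 253 CPM in control axon replicates 2 and 3 and at 0 in the other three, and 2 of 6 stretched axon libraries held it, at 57.0 and 384 CPM. Cav2 did not pass the filter on low counts in axons, and Cav1 had a log2 fold change of -0.39 with an SE of 2.63.

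The cavins gave mixed values. Cavin1 (chr11:100956733-100970887, minus strand) had lowest, median and highest levels of 34.5, 40.7 and 57.8 CPM in control somata and 47.2, 56.2 and 64.5 CPM in stretched somata. Of the 6 control libraries, 5 lay below every stretched library, and the exception was control soma replicate 4. Leaving out 1 library ended the call in 10 of 12 cases (highest edgeR adjusted p = 0.104), and it was kept without control soma replicate 4 or without stretched soma replicate 8. On the high side of the Eif2s3y split the groups did not overlap, at 39.2 ± 5.59 and 56.4 ± 8.69 CPM (SD, n = 3 each), while on the low side they overlapped. With so few libraries per group separation is often met by chance, and its share over all genes was not counted.

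In axons Cavin1 was at 793, 542, 0, 48.1 and 255 CPM in control axon replicates 1, 2, 3, 5 and 7. The stretched axon libraries ran from 112 through a median of 468 to 1501 CPM. It was detected in 10 of 11 axonal libraries, and all 6 stretched axon libraries stood above all 6 stretched soma libraries. This held for 3 of the 10 genes, Cavin1, Anxa2 and Anxa5, and for 1.84% of all genes averaging 10 CPM or more. The ratio of axonal to soma mean was 7.69 in control cultures (2.94 on the log2 scale, and 2.31 without control axon replicate 1) and 11.1 in stretched cultures. The mean over the 5 control axon libraries was 328 ± 337 CPM (SD), and over the 6 stretched ones 616 ± 545 CPM (SD). Stretched against control axons gave a log2 fold change of 0.91 with an SE of 1.30. The axonal library with the most Cavin1, stretched axon replicate 1, also had the highest sum of fibroblast and mural markers, 3408 CPM. The library with none, control axon replicate 3, had the lowest, 162 CPM. Members of that marker list went both ways between axons and somata, and the part of these markers in the Cavin1 level was not tested.

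Cavin1 was the gene of the group that rose in somata, so the stretch of genome around its start (GRCm38.p6, RefSeq, chr11:100970568-100970867, minus strand, 250 bases before to 50 after) is printed. Capitals mark a TEAD-type GGAATG match at -247, a CCAAT match at -63 and a GC box (GGGCGG) at -7, each searched on both strands and placed by its leftmost base relative to the start. The start used is the RefSeq one at 100970617, which lies inside the gene span given above (to 100970887). Positions depend on the start taken, and a second RefSeq start of Cavin1 puts these matches at -249, -65 and -9. CATTCC and CCGCCC are the GGAATG and GGGCGG letters of the opposite strand.
Cavin1 promoter: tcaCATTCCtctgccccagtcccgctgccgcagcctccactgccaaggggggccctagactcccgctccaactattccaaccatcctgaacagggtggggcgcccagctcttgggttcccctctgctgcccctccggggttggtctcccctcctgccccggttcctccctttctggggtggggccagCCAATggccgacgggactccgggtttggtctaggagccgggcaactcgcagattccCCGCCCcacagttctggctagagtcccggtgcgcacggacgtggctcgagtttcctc
No AP-1 match (TGANTCA) and no TATAAA was found there. Among 32851 RefSeq promoters of this length, 14.7% held GGAATG, 37.4% CCAAT and 35.7% GGGCGG.

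Cavin3 (chr7:105480083-105482300, minus strand) encodes a cavin that binds protein kinase C delta. Its lowest, median and highest levels were 11.4, 18.9 and 27.1 CPM in control somata and 8.23, 12.7 and 17.7 CPM in stretched somata. Of the 6 control libraries, 4 lay above every stretched library. It fell by 0.65 on the log2 scale (SE 0.22, edgeR adjusted p = 0.0432), and leaving out 1 library ended the call in 9 of 12 cases (highest adjusted p = 0.103), all except those without control soma replicate 4, stretched soma replicate 2 or stretched soma replicate 8. With the length and GC offset the log2 fold change was -0.34 (edgeR adjusted p = 0.232).

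In axons Cavin3 was at 0, 4.24, 0, 19.6 and 123 CPM in control replicates 1, 2, 3, 5 and 7, and at 0, 59.1 and 143 CPM (lowest, median, highest) in stretched libraries. It was detected in 7 of 11. The axonal mean exceeded the soma mean 1.5 times in control cultures, but that rested on control axon replicate 7: without it the log2 ratio was -1.72, and with group medians it was -2.16. Cavin2 (chr1:51289126-51302960, plus strand), which encodes a phosphatidylserine-binding cavin, was low in somata, at 7.40 ± 1.55 CPM in control and 6.60 ± 1.03 CPM in stretched somata (SD, n = 6 each; log2 fold change -0.20, edgeR adjusted p = 0.404). Among axonal libraries it was counted in control replicate 1 alone, at 170.4 CPM. All 6 stretched axon libraries had 0 counts. The stretched soma mean was 47.4-fold above a level of 3 counts per library, but that floor covers counting error only. Genes under 10 CPM in somata, as Cavin2 was, were detected in a median of 0 axonal libraries. Of all genes averaging 10 CPM or more, a level Cavin2 did not reach, 15.3% had every stretched axon library below every stretched soma library.

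**Figure D4:**
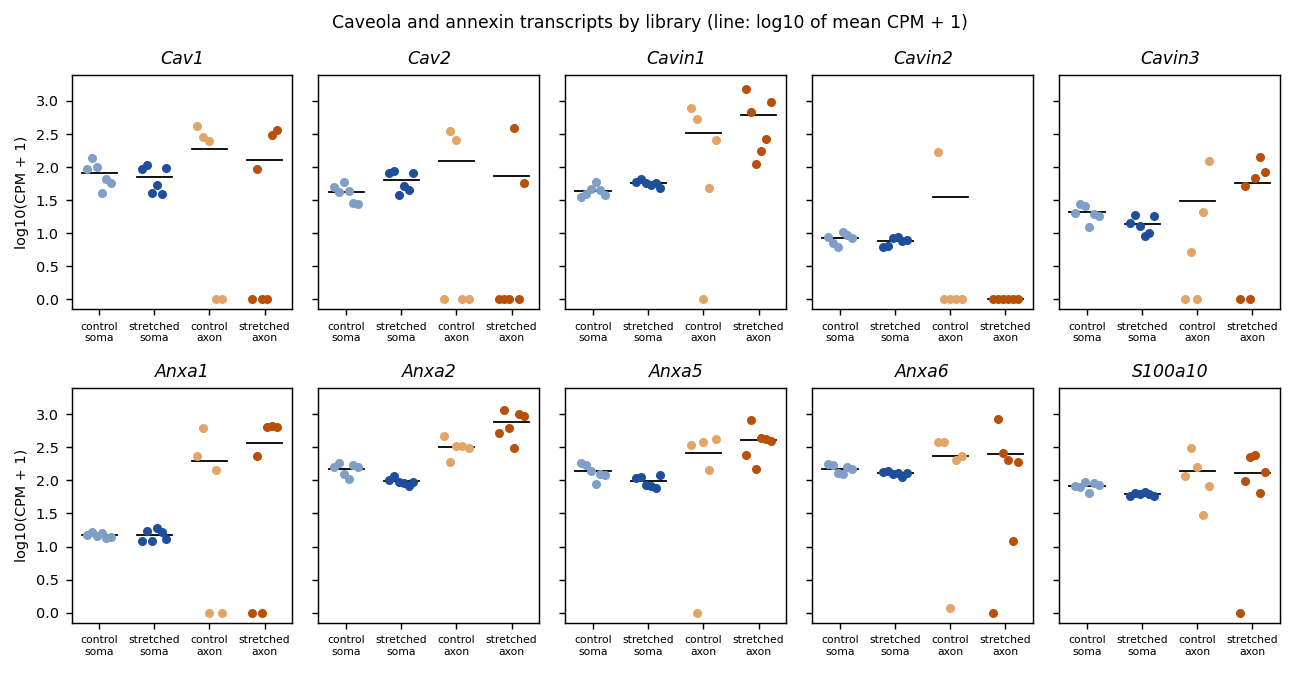
Level of each of the 10 genes in every library, as log10(CPM + 1), with a line at the mean of each group. Anxa2 is above 0 in all 11 axonal libraries and Cavin2 in 1, and soma libraries of a group lie much closer together than axonal ones.

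Among the annexins, Anxa2 was the one gene of the 10 that was counted in every axonal library. Annexin A2 binds membranes and actin and forms a tetramer with S100A10. The gene lies at chr9:69453620-69491795 on the plus strand. Its lowest, median and highest levels were 104, 157 and 185 CPM in control somata and 82.0, 93.4 and 116 CPM in stretched somata. Of the stretched soma libraries, 5 of 6 lay below every control, and the overlap lay between stretched soma replicate 2 and control soma replicate 4. Control and stretched groups did not overlap on either side of the Eif2s3y split. On the high side the control and stretched means were 155 ± 31.5 and 104 ± 11.1 CPM. On the low side they were 144 ± 35.6 and 88.2 ± 5.51 CPM (SD, n = 3 each). With 3 libraries per group chance alone often separates groups, and the share of all genes so separated was not counted. Fitted on the low side alone, edgeR gave a log2 fold change of -0.74 with an adjusted p of 0.272, and 0 of 15718 genes passed there.

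In axons Anxa2 was at 467, 191, 326, 326 and 312 CPM in control replicates 1, 2, 3, 5 and 7. The stretched axon libraries had a lowest level of 307, a median of 775 and a highest of 1173 CPM. All axonal libraries stood above all soma libraries of the same treatment. In control cultures this held for Anxa2 alone of the 10 genes and for 1.39% of all genes averaging 10 CPM or more. The ratio of axonal to soma mean was 2.17 in control and 7.91 in stretched cultures. These ratios share their stretched and control libraries with the comparisons of stretch. Of the 6 stretched axon libraries, 5 lay above every control axon library, and stretched axon replicate 5 did not. The log2 fold change in axons was 1.22 (SE 0.53), with an unadjusted p of 0.0365 and an edgeR adjusted p of 1.00, so it did not pass. An edgeR fit over all 4 groups, which shares its spread with the soma libraries, gave an adjusted p of 0.0252. That fit called 3870 of 16113 genes in axons, where the fit of axons alone called 0. DESeq2 gave an adjusted p of 0.963.

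The promoter of Anxa2 (GRCm38.p6, RefSeq, chr9:69453433-69453732, plus strand) is shown because Anxa2 had the smallest adjusted p of the 10 genes in somata. Capitals mark GC boxes (GGGCGG) at -190, -48 and -24, an AP-1 match (TGANTCA) at -95 and TATAAA at -17. These positions count from the RefSeq start at 69453683, while the gene span given above begins at 69453620.
Anxa2 promoter: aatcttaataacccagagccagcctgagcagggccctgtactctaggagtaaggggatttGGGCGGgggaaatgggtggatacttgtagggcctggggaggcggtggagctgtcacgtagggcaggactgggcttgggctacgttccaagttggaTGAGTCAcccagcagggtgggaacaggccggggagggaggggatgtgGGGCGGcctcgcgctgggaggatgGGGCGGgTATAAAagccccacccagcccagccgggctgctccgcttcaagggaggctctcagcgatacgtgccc
The AP-1 letters occur in 7.81% and TATAAA in 13.6% of the 32851 promoters. Of the genes that fell in somata, the table of promoters also held Anxa5, whose window (chr3:36475838-36476137, minus strand) had no match to any of the 5 motifs.
Anxa5 promoter: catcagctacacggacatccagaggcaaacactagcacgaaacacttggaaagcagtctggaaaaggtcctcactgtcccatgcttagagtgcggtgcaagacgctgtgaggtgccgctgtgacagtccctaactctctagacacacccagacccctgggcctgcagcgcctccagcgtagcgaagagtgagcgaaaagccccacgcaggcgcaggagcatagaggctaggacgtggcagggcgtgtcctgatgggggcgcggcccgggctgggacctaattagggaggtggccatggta
These letters in common or lacking describe the windows only.

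Anxa5 (chr3:36448923-36475894, minus strand) encodes the annexin that binds exposed phosphatidylserine and can form lattices on membranes. It stood at 87.2, 129 and 179 CPM (lowest, median, highest) in control somata and at 75.3, 95.6 and 120.1 CPM in stretched somata. Of the control libraries, 5 of 6 lay above every stretched one, and again control soma replicate 4 was the exception. It fell by 0.54 on the log2 scale (SE 0.17, edgeR adjusted p = 0.029). The call was lost without control soma replicates 1, 2 or 5 or without stretched soma replicates 4, 5 or 6 (highest edgeR adjusted p = 0.0708), and with the length and GC offset (log2 fold change -0.29, edgeR adjusted p = 0.133). On both sides of the Eif2s3y split the groups did not overlap, at log2 ratios of means of -0.52 and -0.46. Each group there held 3 libraries, and the share of all genes so separated was not counted.

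In control axons Anxa5 was at 343, 0, 375, 143 and 415 CPM in replicates 1, 2, 3, 5 and 7. Stretched axon libraries ran from 148 through a median of 405 to 825 CPM, all above every stretched soma library. The log2 fold change in axons was 0.69 with an SE of 1.27.

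Anxa6 (chr11:54979108-55033445, minus strand) encodes an annexin with an extended core of repeats. Its lowest, median and highest levels were 124, 153 and 175 CPM in control somata and 113, 129.5 and 136 CPM in stretched somata. It fell by 0.28 on the log2 scale (SE 0.10, edgeR adjusted p = 0.0471), the smallest change among the 5 that fell. The call was kept without control soma replicates 3 or 4 and lost when any of the other 10 libraries was left out (highest edgeR adjusted p = 0.122). With the offset the log2 fold change was -0.12 (edgeR adjusted p = 0.307). In axons Anxa6 was at 373, 375, 0.176, 203 and 232 CPM in control replicates 1, 2, 3, 5 and 7, and at 0, 198 and 846 CPM (lowest, median, highest) in stretched libraries. The groups overlapped, with a log2 fold change of 0.05 and an SE of 1.71.

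Anxa1 (chr19:20373428-20390944, minus strand), whose protein is known for limiting inflammation, did not pass in somata. Its levels were 12.6, 13.5 and 15.9 CPM in control and 10.9, 13.8 and 18.2 CPM in stretched somata (lowest, median, highest), with a log2 difference of -0.03 (SE 0.14, edgeR adjusted p = 0.905). In axons it had the highest ratios to the soma mean of the 10 genes, 14.2 in control and 26.0 in stretched cultures, while being detected in 7 of 11 libraries. The control ratio rested in part on control axon replicate 2: on the log2 scale it was 3.83, and 2.77 without that library. The control values were 235, 609, 0, 143 and 0 CPM in replicates 1, 2, 3, 5 and 7, and the stretched libraries had a lowest level of 0, a median of 436 and a highest of 671 CPM. Of the 6 stretched libraries, 3 lay above every control, and the log2 fold change was 1.00 with an SE of 2.24.

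S100a10 (chr3:93555080-93564643, plus strand) encodes a small EF-hand protein that does not bind calcium and that is stabilised by annexin A2. Its lowest, median and highest levels were 63.8, 82.4 and 92.2 CPM in control somata and 57.4, 61.4 and 66.8 CPM in stretched somata. Of the control libraries, 5 of 6 lay above every stretched library, control soma replicate 4 being within their range. With the length and GC offset the log2 fold change was -0.18 (edgeR adjusted p = 0.155), so this call depended on that choice. In axons S100a10 was at 115, 313, 156, 29.3 and 81.1 CPM in control replicates 1, 2, 3, 5 and 7. The stretched libraries had a lowest level of 0, a median of 115 and a highest of 244 CPM, and the log2 fold change was -0.02 with an SE of 1.75.

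**Figure D5:**
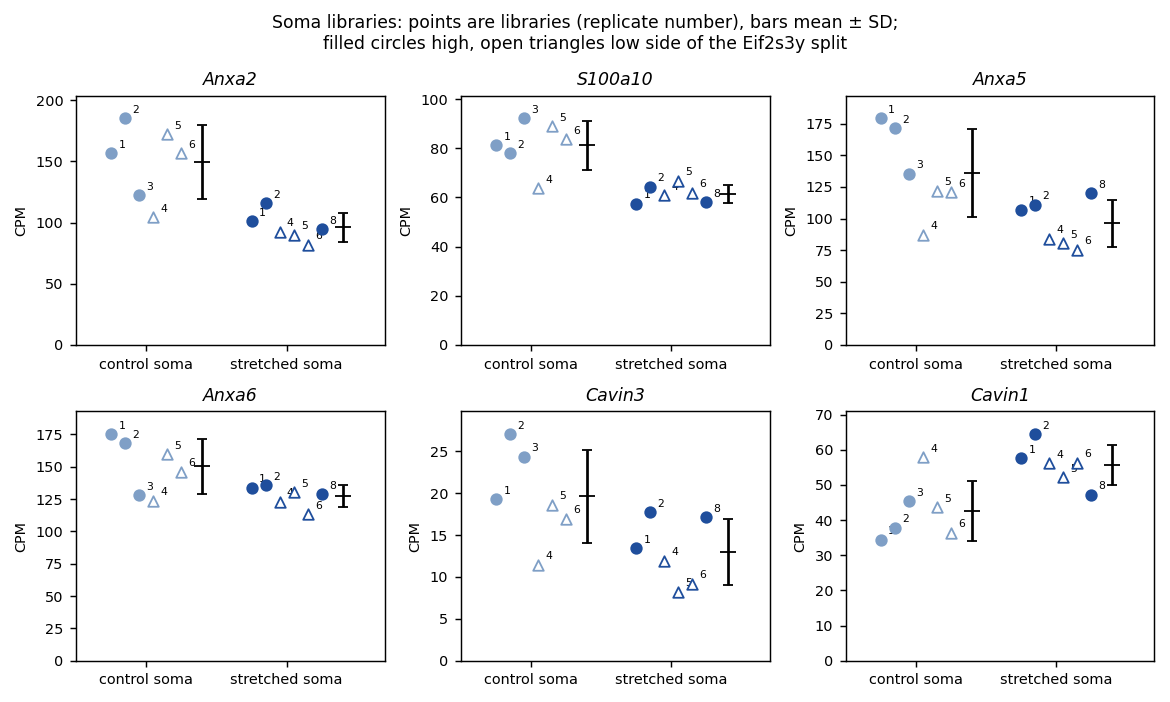
CPM of the 6 genes that passed in somata, 1 point per library with its replicate number, with mean ± SD of each group. Circles are libraries on the high side and triangles on the low side of the Eif2s3y split. Control soma replicate 4 lies nearest to or among the stretched libraries for these genes.

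Levels can be compared between genes only per length. In control somata, per kb of the longest coding transcript, S100a10 was highest at 119 ± 14.6 CPM per kb, followed by Anxa2 at 103 ± 21.2, Anxa5 at 78.6 ± 19.9 and Anxa6 at 60.4 ± 8.50 CPM per kb (SD, n = 6 each). Next came Cav1 at 29.6 ± 12.6, Cav2 at 15.03 ± 4.58, Cavin1 at 12.2 ± 2.45, Cavin3 at 11.8 ± 3.33, Anxa1 at 8.28 ± 0.750 and Cavin2 at 2.42 ± 0.507 CPM per kb. Library ranges of neighbours in this order overlapped, except between Anxa6 and Cav1 and between Anxa1 and Cavin2.

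Detection in axons differed among the 10 genes. Anxa2 was detected in 11 of 11 axonal libraries, and Cavin1, Anxa5, Anxa6 and S100a10 in 10 of 11. Cavin3 and Anxa1 were found in 7, Cav1 in 6, Cav2 in 4 and Cavin2 in 1. These numbers were the same when more than 3 counts were required and when libraries were thinned to the smallest total. The axonal mean lay above the soma mean for all 10 genes in control cultures and for 9 in stretched cultures, against 44.7% and 48.2% of all genes averaging 10 CPM or more. Single libraries decided some of these directions. Without control axon replicate 7 the log2 ratio of Cavin3 was -1.72, and the 1 axonal library with Cavin2 decided its direction in control cultures. In stretched cultures the log2 ratio of Cav2 was -2.47 without stretched axon replicate 5, and -0.03 with TMM scaling. With group medians the axonal level was the higher one for 7 genes in each condition: Cav2 and Cavin2 had axonal medians of 0, and the log2 ratio was -2.16 for Cavin3 in control and -0.67 for Cav1 in stretched cultures. Since the genes were chosen on this contrast, nothing is read from these counts. For reference, genes averaging 100 CPM or more in somata were detected in a median of 9 axonal libraries, 26.2% of them in all 11, and genes of 10 to 100 CPM in a median of 4, 2.57% of them in all 11.

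Over the 12 soma libraries, the 10 pairs among the 5 genes that fell had Pearson correlations of 0.633 to 0.915. Pearson's r of log2(CPM + 1), scaled by edgeR's trimmed mean of M-values (TMM), was 0.915 between Anxa2 and Anxa6, 0.809 between Anxa2 and S100a10, 0.906 between Anxa5 and Cavin3, and -0.756 between Anxa2 and Cavin1. These values are descriptive, since the libraries share the 2 treatments and the Eif2s3y sides. The 5 genes were picked for falling and Cavin1 for rising across these same libraries, so that choice largely set the signs. Among 9524 genes averaging 10 CPM or more, those most like Anxa2 were Clic1 (r = 0.985), Cmtm3 (0.980), Rps6 (0.974), Arf1 (0.973) and Arpc1b (0.961). Those most like Cavin1 were Cbx8 (0.963), Ppm1e (0.956), Abcg1 (0.940), Nrd1 (0.931) and Pogk (0.929).

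Other genes of the same machinery were read beside these 10 in somata, where 25.1% of all genes passed and 13.9% fell. Their values come from the fit without the offset for length and GC content, and they were not read with it. Fold changes in that fit moved with transcript length, and the part of length in these lists was not tested. Among 10 tested genes of caveola-associated and raft proteins, 2 fell and 0 rose, with a median log2 fold change of -0.22: Pacsin1, a membrane-bending F-BAR protein (-0.38, edgeR adjusted p = 0.00969), and Ehd1, an ATPase of membrane remodelling (-0.26, edgeR adjusted p = 0.0366). Of 4 other annexins tested, 0 passed by edgeR and 1, Anxa3, had an unadjusted p under 0.05 (log2 fold change -0.53). Of 7 other S100 genes, 2 fell and 0 rose, with a median of -0.57: S100a6 (-0.83, edgeR adjusted p = 0.0327) and S100a11 (-0.57, edgeR adjusted p = 0.0154), which encode calcium-binding proteins that bind annexins. Of 6 genes of membrane repair and annexin A2 partners, Capn2, a calcium-activated protease, fell (-0.43, edgeR adjusted p = 0.0241).

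Of the cell type markers tested in somata 9 of 43 passed in the fit without the offset, against 25.1% of all genes. By edgeR 0 of 8 astrocyte markers passed, with 0 at an unadjusted p under 0.05, and 0 of 7 endothelial markers, with 2 at an unadjusted p under 0.05 (Kdr and Esam). Of 8 fibroblast and mural markers, Rgs5 rose (log2 fold change 0.38) and Dcn fell (-0.83), of 6 microglial markers C1qa fell (-1.35), and of 6 oligodendrocyte lineage markers Mog rose (0.73). Of 8 neuronal markers 5 passed: the synaptic vesicle gene Syt1 rose (0.36), and Rbfox3 (-0.90), the neurofilament gene Nefm (-0.75), Gap43 (-0.32) and the tubulin gene Tubb3 (-0.27) fell. The 6 microglial markers were all counted in every soma library. They summed to 22.71 to 46.6 CPM in control and 15.4 to 22.69 CPM in stretched somata. The lowest control sum was barely above the highest stretched sum, and how often other sums separate so was not counted. Members differed: C1qa averaged 13.8 and 5.56 CPM in control and stretched somata, and Cx3cr1 1.84 and 1.92 CPM. The 8 neuronal markers summed to 6332 to 7680 CPM and 6139 to 6560 CPM, and the 8 oligodendrocyte lineage markers, with Sox10 at 0, to 42.7 to 74.1 CPM and 39.8 to 57.3 CPM in control and stretched somata. The part of cell composition in the values of the 10 genes was not tested.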

How the data were processed

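For each of 23 libraries the authors deposited raw counts by Ensembl gene ID, as whole numbers, with totals of uncounted reads (14.2 to 24.4% of reads) left out here. Per the submitters' processing notes, reads were handled with FastQC 0.11.9, MultiQC 1.12, fastp 0.20.1, STAR and HTSeq 0.13.5 on mm10. Annotation release, strand setting and any use of the molecular identifiers are not given in the sources used here, so amplified copies may be counted and antisense or overlapping genes may be mixed. Symbols, coordinates and transcript lengths came from GENCODE M21 and RefSeq tables of the same build (GRCm38), with 55141 of 55487 IDs named. RefSeq promoters were matched for 7 of the 10 genes.

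CPM used the sum over gene IDs. Stretched and control libraries were compared within each compartment with edgeR 4.0.16 in R 4.3.3 (filterByExpr, TMM, robust quasi-likelihood F test), fitted on all genes of the 2 groups, with Benjamini-Hochberg adjustment over all genes tested and a threshold of 0.05. SE is the log2 fold change divided by the square root of F. Axons against somata was described without a test. Alternatives were library totals, no filter, DESeq2 1.42.0, voom with sample weights (limma 3.58.1), all 4 groups in 1 fit, the replicate block, the Eif2s3y side as covariate, an offset for transcript length and GC content (mgcv 1.9.3), and leaving out each library in turn. The edgeR fits were also run on simulated data with planted changes. How many of these changes they recovered in somata or axons is not reported here. A floor of 3 counts was used.

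The 10 genes, the other lists and the tests were chosen with earlier results of these data known. All 10 genes are named, along with listed genes that passed (up to 3 highest and 3 lowest per list) and the 5 genes most like Anxa2 and Cavin1.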

Additional observations from a re-analysis of the deposited data

Results flagged for a closer look

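In 4 of 39 groups of 5 or 6 libraries, 1 library stood far from the rest by Dixon's test. Chance marks about 1 group in 20 where values spread normally, a rate that need not hold for axonal values with many 0 counts. All 4 marked groups were axonal. Cav2 was at 384 CPM in stretched axon replicate 5 and at 0 to 57.0 CPM in the others. Cavin2 was at 170 CPM in control axon replicate 1 and at 0 in the others. Cavin3 was at 123 CPM in control axon replicate 7 and at 0 to 19.6 CPM in the others. Anxa6 was at 846 CPM in stretched axon replicate 2 and at 0 to 261 CPM in the others.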

How the results depend on the processing

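The count of 3929 genes called in somata became 0 in a fit over all 4 groups, 2501 with the offset for length and GC content and 0 on the low side of the Eif2s3y split (2739 at an unadjusted p under 0.05), and leaving out each library gave 2666 to 6072, the highest without control soma replicate 4. Library totals changed the split to 2138 higher and 1867 lower from 1757 and 2172. In axons the count of 0 became 18 with DESeq2, 10 with limma voom and 3870 in the fit over all 4 groups, while leaving out each library gave 0 in each case. The causes were not tested.

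Replicate numbers are shared between groups. In somata 4 of 5 same-numbered pairs had deviations correlated above 0.1 (mean 0.226, against -0.036 for other pairs, and 0.003 for replicate 5). In both treatments soma replicates 1 and 2 were on the high side of the Eif2s3y split, and 4, 5 and 6 on the low side. In axons 0 of 3 pairs did so (mean correlation 0.026), but the far larger spread there cannot settle the question for somata. The labels do not say whether equal numbers mark pairs. The fit as reported used no pairing, and pairing in somata stays possible. With the replicate block edgeR called 3209 genes in somata and 7 of the 10 genes described, adding Cav2 (log2 fold change 0.59, adjusted p = 0.0286), and 0 in axons. The replicate block with the offset gave 2066 genes in somata and 3 of the 10.

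Of the 10 genes in somata, 4 passed with library totals (not Anxa6 and Cavin3), where 4005 of 15632 genes did. Without a filter 3 passed, where 3030 of 32870 genes did. DESeq2 gave 7 (4772 of 15632 genes), limma voom 6 (5556 of 15632) and the Eif2s3y side as covariate 7 (5304 of 15632). Among alternatives chosen after seeing the data, 6 passed on the high side of the split (4637 of 15867 genes) and 0 on the low side (0 of 15718). A further one, without both libraries numbered 4, gave 6 (5667 of 15688). The only gene in somata to change direction was Anxa1, which passed nowhere: its log2 fold change of -0.03 became 0.0136 with library totals, 0.0003 without a filter, 0.0894 over all 4 groups, 0.12 with the offset, 0.14 with block and offset, 0.13 on the low side and 0.0409 without both libraries numbered 4, and was -0.117 to 0.0557 with each library left out.

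In axons, direction changed for Cav1 (1.24 with limma voom, and -1.10 to 0.14 with each library left out), Anxa1 (-1.84 with the block), Anxa6 (-1.21 with the block, and -0.75 to 0.32 with each library left out) and S100a10 (0.0446 without a filter, 0.0011 with DESeq2, 0.0561 with limma voom, 0.0116 over all 4 groups, and -0.32 to 0.48 with each library left out). The biological coefficient of variation was 2.39 in axons and 0.240 in somata.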
